A study of Homo sapiens with 6 samples.

Results

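The interferon-induced transmembrane (IFITM) genes were described in A549 cells, an established human lung epithelial carcinoma line. The genes were chosen by symbol, as IFITM1, IFITM2, IFITM3 and IFITM10, which are 4 of the 29845 genes in the table of read counts. Poly-A RNA was sequenced in 6 libraries, of which 3 came from cells given the empty pIRES-hrGFP-1a plasmid (control) and 3 from cells given that plasmid carrying TFAM with a FLAG tag (TFAM-OE). All were transfected with Lipofectamine and harvested after 48 h. TFAM is a protein that packages mitochondrial DNA and regulates its transcription. The comparison asks how gene expression differs when TFAM is overexpressed. This is transient transfection of a single cancer cell line, so each library averages cells that took up plasmid and cells that did not, and fewer responding cells cannot be told apart from less RNA per cell.

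IFITM proteins are small membrane proteins that hinder the fusion of enveloped viruses with the cell. IFITM1 sits mostly at the cell surface, whereas IFITM2 and IFITM3 carry an endocytosis signal in a longer N-terminal end and collect in endosomes and lysosomes. IFITM10 is a distant relative with little known function. Interferons switch on IFITM1, IFITM2 and IFITM3 through receptors, Janus kinases and the STAT and IRF transcription factors, and many epithelial cells also carry a basal level of them.

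On GRCh38, in the GENCODE annotation (version 44), the 3 close relatives lie side by side on chromosome 11. Positions are those of this annotation, and the identifiers, with their version numbers, are those of the authors' counts. IFITM2 (ENSG00000185201.16) runs from 303655 to 309397 on the plus strand, IFITM1 (ENSG00000185885.15) from 310041 to 315272 on the plus strand, and IFITM3 (ENSG00000142089.15) from 319676 to 329475 on the minus strand. IFITM10 (ENSG00000244242.1) lies apart from them, from 1732406 to 1750595 on the minus strand of the same chromosome. The representative transcripts of IFITM1, IFITM2 and IFITM3 have 2 exons each, and that of IFITM10 has 3. They code for 125 residues in IFITM1, 132 in IFITM2, 133 in IFITM3 and 228 in IFITM10. In global alignments of the translated coding sequences, IFITM2 and IFITM3 were identical at 120 of 133 positions (90.2%). IFITM1 was 60.0% identical to IFITM2 and 61.6% identical to IFITM3, and IFITM10 was between 21.5% and 23.6% identical to each of the other members.

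The first exons show how the close relatives differ. The stretches below start at the start codon, and capitals mark the bases at which IFITM2 and IFITM3 differ or at which 1 of them has no base, 10 in IFITM2 and 13 in IFITM3. IFITM3 begins 21 residues before the start of IFITM1, whose coding sequence is shown without capitals.
IFITM2, chr11:308193-308309, plus strand: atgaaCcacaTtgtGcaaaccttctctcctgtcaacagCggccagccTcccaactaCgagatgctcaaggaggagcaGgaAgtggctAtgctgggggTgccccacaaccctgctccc
IFITM3, chr11:320694-320813, minus strand: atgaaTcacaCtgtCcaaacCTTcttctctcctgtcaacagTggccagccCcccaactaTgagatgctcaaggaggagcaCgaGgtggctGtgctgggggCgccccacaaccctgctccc
IFITM1, chr11:314171-314227, plus strand: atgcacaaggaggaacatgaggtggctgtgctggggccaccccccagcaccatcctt

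The longest run that 2 members share base for base lies further along the coding sequence, across the splice junction of IFITM1 and IFITM3. It is shown because a fragment that lies wholly inside it has no base by which to tell these genes apart. In IFITM1 it covers chr11:314324-314356 in exon 1 and chr11:314922-315029 in exon 2, and in IFITM3 chr11:320565-320597 and chr11:319883-319990.
IFITM1 and IFITM3, spliced, 141 bases: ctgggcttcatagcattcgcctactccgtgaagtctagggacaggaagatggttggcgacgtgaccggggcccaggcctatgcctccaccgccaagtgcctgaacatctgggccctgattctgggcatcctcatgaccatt

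The authors sequenced reads of 150 nt from both ends and counted only uniquely mapped reads. Of all stretches of 150 bases in the representative transcripts, 0% of any member recurred exactly in another member or elsewhere in the genome. At 100 bases, 7.38% of the stretches of IFITM1 and 8.20% of those of IFITM3 did, against 0% of those of IFITM2 and IFITM10. At 50 bases the shares were 15.8% for IFITM1, 15.3% for IFITM2, 21.9% for IFITM3 and 0% for IFITM10. Up to 4 mismatches were allowed in the alignment, so near matches could also have removed or moved reads, and the summed counts of IFITM1, IFITM2 and IFITM3 are therefore given beside the single genes.

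RefSeq promoters (GRCh38.p14) were at hand for IFITM1 and IFITM3. Both hold the core of the interferon-stimulated response element, the sequence through which interferon-activated factors such as STAT2 and IRF9 act, searched as GAAANNGAAA on both strands. The stretches are shown because these elements are how interferon is known to reach the genes. Capitals mark the matches.
IFITM1, chr11:313894-314043, plus strand: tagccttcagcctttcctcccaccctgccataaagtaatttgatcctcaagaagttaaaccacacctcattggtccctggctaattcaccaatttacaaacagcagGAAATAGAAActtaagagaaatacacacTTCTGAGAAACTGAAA
IFITM3, chr11:320861-321010, minus strand: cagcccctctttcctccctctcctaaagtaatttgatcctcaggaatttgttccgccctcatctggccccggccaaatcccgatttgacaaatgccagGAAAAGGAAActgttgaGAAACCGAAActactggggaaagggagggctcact

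The IFITM1 promoter has GAAATAGAAA beginning at base -40 from the transcription start and GAAACTGAAA beginning at -6 and running 4 bases past the start. A further match is TTCTGAGAA at -12, a match to TTCNNNGAA, the core of the gamma-activated sequence of interferon-gamma responses, and it overlaps the second response element. The IFITM3 promoter has GAAAAGGAAA at -52 and GAAACCGAAA at -35, and no match to the second motif in its window. Of the 35116 promoters in the same table, each with 250 bases before and 50 after the start, 3.57% hold GAAANNGAAA and 7.66% hold TTCNNNGAA. These matches are letters in a window and no binding was measured here.

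The TFAM gene was looked at first, to check the labels. Control replicates 1, 2 and 3 had 2555, 1878 and 2663 reads on it, and replicates 1, 2 and 3 labelled TFAM-OE had 2291, 2808 and 2492. The groups overlapped, and the log2 fold change was 0.09 (95% interval -0.13 to 0.30, adjusted p = 0.623 in the quasi-likelihood test of edgeR, as are the edgeR values below). The study checked the overexpression by western blot of the FLAG tag, which is protein data not analysed here. The counts on TFAM do not separate the groups, which are written below as control libraries and, for those labelled TFAM-OE, labelled libraries. The libraries held between 26650854 and 37321956 counts. All 8 epithelial markers of the line were measured, KRT7 at the highest level in CPM, and 0 of 8 passed the adjusted p of edgeR, with 2 under an unadjusted p of 0.05 and 1 past the adjusted p in DESeq2 (0 in limma-voom). The epithelial markers were uneven in controls, from 2829 CPM for KRT7 to 4.37 CPM for CDH1 and 0.455 CPM for EPCAM. Markers of other cell types were low, with at most 4 reads in any library for each endothelial marker. The fibroblast marker COL1A1 had up to 173 reads in a library. Its mean was 4.475 CPM in controls, near that of CDH1, and 3.465 CPM in the labelled libraries (edgeR adjusted p = 0.321). The other fibroblast markers, COL3A1 and PDGFRB, had at most 7 and 15 reads in a library and were too low to be tested. Of the leukocyte markers, CD68, a lysosomal protein of macrophages that other cells also make, had a control level of 3.25 ± 0.357 CPM (reads scaled to depth by TMM, SD, n = 3) and a labelled level of 1.39 ± 0.412 CPM (edgeR adjusted p = 0.0152). That p was 0.0624 without control replicate 1 and 0.0830 without control replicate 2. PTPRC, the pan-leukocyte marker, had 1 read in 1 library. The leukocyte markers together summed to between 3.01 and 3.70 CPM in controls and between 0.966 and 1.73 CPM in the labelled libraries, and their part in the results below was not tested. CD3E was not analysed here.

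All 4 IFITM genes were lower in the labelled libraries. IFITM1 fell most, to 8.80% of the control level, followed by IFITM10 at 17.1%, IFITM3 at 20.2% and IFITM2 at 43.5%. The 95% intervals of IFITM1 and IFITM10 overlap, as do those of IFITM10 and IFITM3. Each gene had all 3 labelled libraries below all 3 controls, which held in this direction for 15.8% of the 16555 genes tested. Each was also called, at an adjusted p below 0.05 with a fold change of at least 2, as were 342 genes in this direction over the whole table, or 2.07%, while 74 genes (0.447%) were called in the other direction. The median log2 fold change of all genes tested was -0.01.

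**Figure D1:**
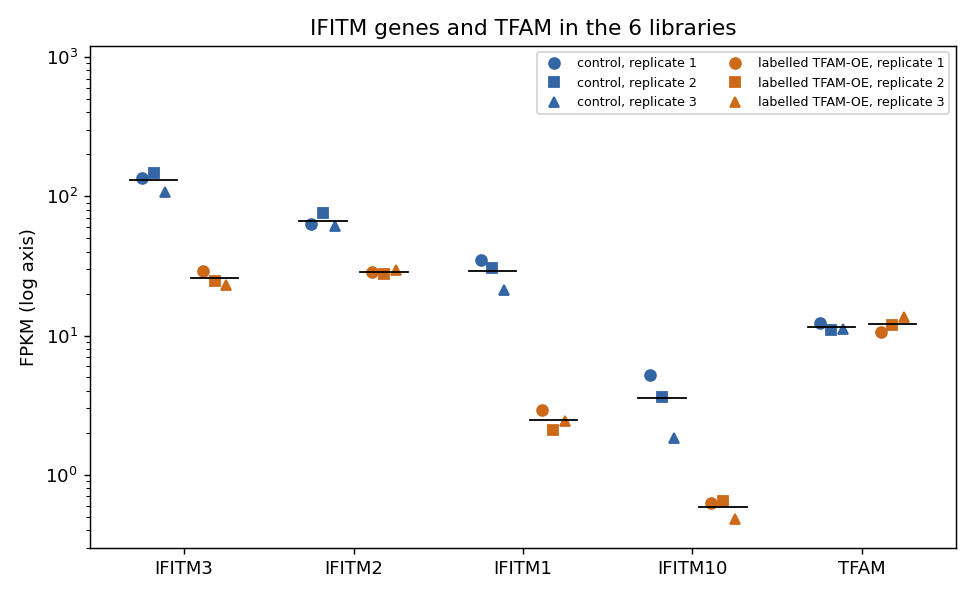
FPKM (the authors' reads scaled to gene length and depth, log axis) of the 4 IFITM genes and of TFAM in each of the 6 libraries, with a line at each group mean. For every IFITM gene the 3 control points lie above the 3 points labelled TFAM-OE, from 21.27 to 34.82 against 2.11 to 2.90 for IFITM1, while the TFAM points of the groups overlap.

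IFITM3, the member best known for blocking influenza virus in endosomes, was the most abundant in the control. Control replicates 1, 2 and 3 had 6230, 5663 and 5732 reads, and labelled replicates 1, 2 and 3 had 1412, 1309 and 943. Per length, these were 134.61, 148.07 and 107.65 FPKM against 29.29, 24.73 and 23.04 FPKM. The lowest control library thus stood far above the highest labelled library. The log2 fold change was -2.31 (standard error 0.154, 95% interval -2.65 to -1.97, edgeR adjusted p = 3.29e-05), which is 4.95-fold lower. IFITM3 held place 405 by mean FPKM among 29656 genes in the control and place 2242 in the labelled libraries.

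IFITM1, the member at the cell surface, showed the largest fold change of the family. Reads numbered 1384, 1005 and 973 in control replicates 1, 2 and 3, against 120, 96 and 86 in labelled replicates 1, 2 and 3. In the same order these were 34.82, 30.59 and 21.27 FPKM against 2.90, 2.11 and 2.45 FPKM. Control replicate 3 was the lowest of the controls and still had more than any labelled library. The log2 fold change was -3.51 (standard error 0.206, 95% interval -3.97 to -3.05, edgeR adjusted p = 1.78e-05), which is 11.4-fold lower with an interval from 8.26-fold to 15.6-fold. Ordered from the lowest log2 fold change, IFITM1 held place 12 of the 16555 genes tested.

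IFITM2, which shares most of its coding sequence with IFITM3, had the smallest fold change. The controls had 2543, 2544 and 2863 reads, and the labelled libraries 1211, 1270 and 1058. In FPKM these were 63.00, 76.27 and 61.65 against 28.80, 27.51 and 29.65. The groups were apart and the labelled libraries were close to each other, with a coefficient of variation of 4.66% in CPM against 12.7% in the control. The log2 fold change was -1.20 (standard error 0.114, edgeR adjusted p = 0.000272), a 2.30-fold lower level, and its interval from 1.93-fold to 2.74-fold takes in the threshold of 2. IFITM2 stood at place 327 from the lowest log2 fold change, against 12 for IFITM1, 47 for IFITM10 and 56 for IFITM3.

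IFITM10, the distant relative, was the least abundant and the most variable. The control replicates held 742, 425 and 301 reads of it, in order, and the labelled replicates 93, 106 and 60. Per length it had 5.24, 3.63 and 1.85 FPKM in the control and 0.63, 0.65 and 0.48 FPKM in the labelled libraries. The highest control library was 2.69 times the lowest in CPM, and the lowest control was still above every labelled library. The log2 fold change was -2.55 (standard error 0.331, 95% interval -3.29 to -1.81, edgeR adjusted p = 0.00224). With each library left out in turn it lay between -2.86 and -2.19, and the gene was called each time.

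Within the control, control replicate 3 was the lowest of the 3 libraries in CPM for IFITM1, IFITM3 and IFITM10, at -0.38, -0.23 and -0.79 from the control mean of log2 CPM. IFITM2 differed from this order, with 75.7 CPM in control replicate 1, 95.04 in control replicate 2 and 78.1 in control replicate 3. Among the labelled libraries, replicate 1 was the highest for all 4 genes, with IFITM10 at nearly the same level in replicate 2 (2.918 against 2.916 CPM).

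Summed over IFITM1, IFITM2 and IFITM3, there were between 9212 and 10157 reads in the control libraries and between 2087 and 2743 in the labelled libraries. The sum does not change if reads were assigned to the wrong one of these genes. Its log2 fold change was -1.99 (standard error 0.130, 95% interval -2.27 to -1.70, edgeR adjusted p = 3.07e-05), which is 3.96-fold lower. In FPKM the sum was 226 ± 32.7 (SD, n = 3) in the control and 56.8 ± 3.63 in the labelled libraries.

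The 3 genes did not keep their shares of that sum. Of the summed FPKM, IFITM3 was 57.5% ± 0.876 (SD, n = 3) in the control and 45.1% ± 3.14 in the labelled libraries. IFITM2 was 29.8% ± 2.63 against 50.5% ± 3.28. IFITM1 was 12.7% ± 2.01 against 4.36% ± 0.442. The libraries of the groups did not overlap in any of these shares.

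**Figure D2:**
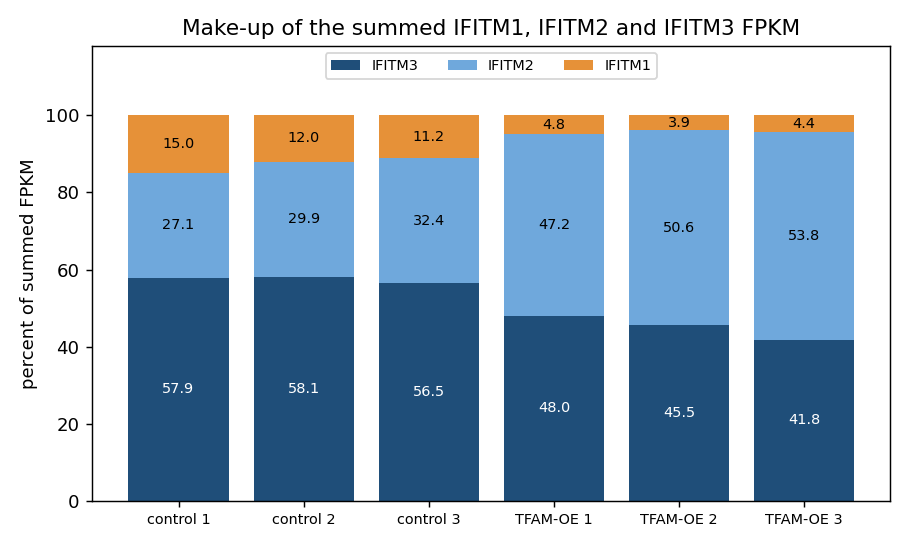
Percent of the summed FPKM of IFITM1, IFITM2 and IFITM3 that each gene made up in each library, printed in the bars. IFITM2 makes up between 27.1% and 32.35% in the 3 control libraries and between 47.22% and 53.77% in the 3 labelled TFAM-OE, where IFITM1 makes up at most 4.76%.

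In the control the order of levels per length was IFITM3, IFITM2, IFITM1 and IFITM10 in all 3 libraries, and neighbours in that order did not overlap in FPKM. In the labelled libraries, IFITM2 (28.7 ± 1.08 FPKM, SD, n = 3) and IFITM3 (25.7 ± 3.23 FPKM) overlapped and did not differ beyond their spread. IFITM3 was the higher in labelled replicate 1 and IFITM2 in replicates 2 and 3. IFITM1 followed at 2.49 ± 0.396 FPKM and IFITM10 at 0.587 ± 0.0929 FPKM, each with no overlap with its neighbour. The lengths implied by FPKM and total counts were at least 1222 bases for IFITM1, 1242 for IFITM2 and 1424 for IFITM3. Their representative transcripts have 668, 1006 and 611 bases. In CPM, which uses no length, the labelled means were 36.06 for IFITM2 and 37.25 for IFITM3. The order of these 2 genes and the shares above therefore depend on the length used.

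The unequal change was also compared as the log2 ratio of FPKM within a library, for all 6 pairs of members. IFITM1 against IFITM2 had ratios of -0.86, -1.32 and -1.54 in the control and -3.31, -3.71 and -3.60 in the labelled libraries, a difference of -2.30. The difference was -1.19 for IFITM1 against IFITM3, -1.03 for IFITM1 against IFITM10, 1.12 for IFITM2 against IFITM3 and 1.28 for IFITM2 against IFITM10. In these 5 pairs the groups did not overlap, and the exact permutation test, two-sided, gave p = 0.1 for each, the smallest that 3 against 3 libraries allow, and 0.12 after Benjamini-Hochberg adjustment over the 6 pairs. The design cannot reach 0.05 in this test. For IFITM3 against IFITM10 the groups overlapped (difference 0.16, p = 0.8 in the same exact test), and the difference was -0.15 without control replicate 1.

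Genes that overlap the members in the annotation were compared because the use of strand in the authors' counting is not given in the sources used here. RP11-295K3.1 is a protein-coding readthrough locus on the same strand that reaches from within IFITM10 into CTSD, the cathepsin D gene. Its reads numbered 5243, 4252 and 5268 across the controls, against 4941, 4859 and 4226 across the labelled libraries, and its log2 fold change was -0.10 (95% interval -0.31 to 0.12, edgeR adjusted p = 0.576). These counts overlapped between the groups, unlike those of IFITM10. ENSG00000288681, a protein-coding gene on the strand of IFITM1 and IFITM2 that overlaps both (308408 to 315272), was not analysed here. Of the long noncoding genes on the opposite strand, 2 were tested. RP11-326C3.7, opposite IFITM1, had between 26 and 46 reads (log2 fold change 0.49, edgeR adjusted p = 0.217, labelled libraries all above the controls in CPM), and RP11-326C3.11, opposite IFITM3, had between 5 and 14 (log2 fold change 0.12, edgeR adjusted p = 0.898). How many reads were shared with the members was not tested.

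The other genes around the members on chromosome 11 were taken from the annotation. Of the 6 nearest protein-coding genes on each side of the IFITM1 to IFITM3 cluster and of IFITM10, 24 in all, 12 could be tested, and 0 passed an adjusted p of 0.05 in the lower direction, against 4.81% of all genes tested. In that direction 0 were also under an unadjusted p of 0.05, or past the adjusted p in DESeq2 or limma-voom. In the higher direction, 4 of the 12 were under an unadjusted p of 0.05 in edgeR. The adjusted p was passed by 2 in edgeR, 3 in DESeq2 and 2 in limma-voom. The 4 were PKP3, SIGIRR, B4GALNT4 (log2 fold change 0.545) and PGGHG (0.453). The median log2 fold change of the 12 was 0.17. Around IFITM10 only CTSD and LSP1 could be tested, with log2 fold changes of -0.06 and -0.50 (edgeR adjusted p = 0.711 and 0.479). LSP1 had a mean of only 0.447 CPM in controls. PKP3, a desmosome protein, rose by a log2 fold change of 0.56 (edgeR adjusted p = 0.0398), and SIGIRR, an inhibitor of interleukin receptor signalling, rose by 0.47 (edgeR adjusted p = 0.0442); 3.48% of all genes passed in that direction. Neither passed without control replicate 1 (adjusted p = 0.134 and 0.172), without control replicate 2 (0.119 and 0.114) or without labelled replicate 2 (0.143 and 0.200), and SIGIRR also did not without control replicate 3 (0.0799). IFITM5, the bone member of the family next to IFITM2, had 1 read over all 6 libraries, as had the pseudogene IFITM4P.

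**Figure D3:**
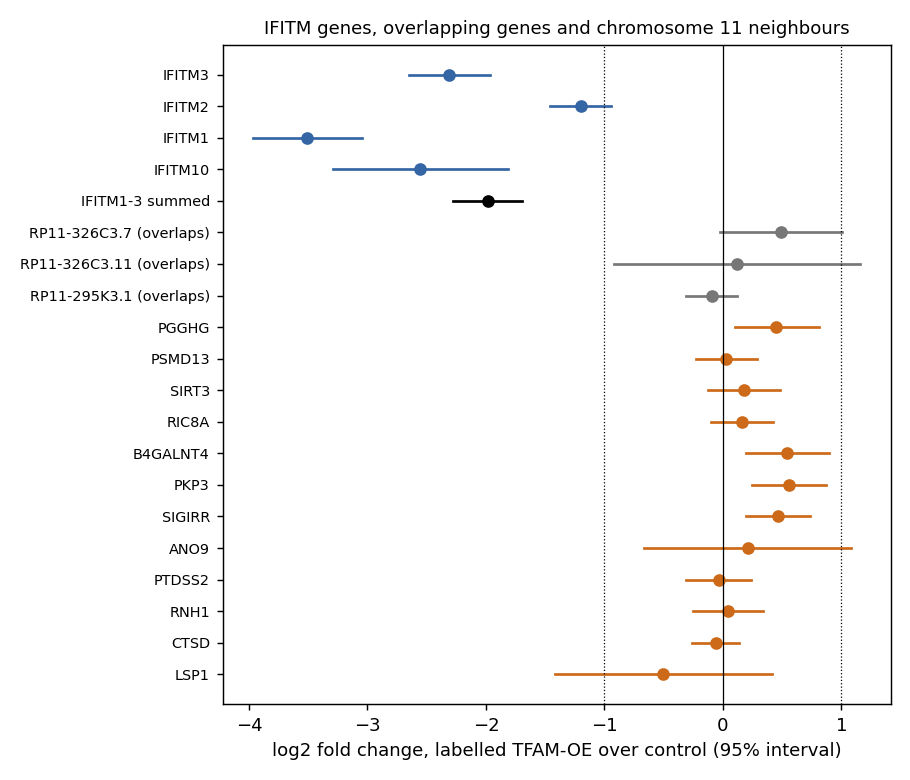
Log2 fold change with its 95% interval for the IFITM genes (blue), the sum of IFITM1, IFITM2 and IFITM3 (black), 3 overlapping genes (grey) and 12 chromosome 11 neighbours (orange), with dotted lines at a 2-fold change. The IFITM intervals lie between -3.97 and -0.95, and those of the overlapping genes and neighbours all reach above 0. Those of PGGHG, B4GALNT4, PKP3 and SIGIRR lie wholly above 0.

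The more distant relatives with the same CD225 domain, several of them proteins of nerve or fat cells, were little expressed. Of 8 such genes, 3 could be tested and 0 passed an edgeR adjusted p of 0.05, with a median log2 fold change of -0.03. SYNDIG1, a synapse protein, had the smallest p. Its level was 2.06 ± 0.555 CPM (SD, n = 3) in controls and 3.46 ± 0.542 CPM in the labelled libraries (log2 fold change 0.74, edgeR adjusted p = 0.0704), and it was the 1 gene under an unadjusted p of 0.05. It passed in DESeq2 (adjusted p = 0.0371) and not in limma-voom (0.0703). TMEM91 had a log2 fold change of -0.21 (edgeR adjusted p = 0.654).

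Proteins known to bind or modify IFITM proteins formed a further list, with the adaptor subunits of endocytosis, palmitoyl transferases, a ubiquitin ligase and tetraspanins. All 16 were tested, and 1 passed lower and 1 higher, which is near the 4.81% and 3.48% of all genes tested. The median log2 fold change was 0.10. AP2A1, a subunit of the clathrin adaptor that draws IFITM3 in from the surface, rose by a log2 fold change of 0.58 (edgeR adjusted p = 0.0134). It did not pass without control replicate 1 (0.0529), control replicate 2 (0.0667) or labelled replicate 2 (0.0802). NEDD4, the ubiquitin ligase that marks IFITM3 for breakdown, had 149.7 ± 18.7 CPM (SD, n = 3) in controls and 100.3 ± 20.8 CPM in the labelled libraries, a log2 fold change of -0.58 at an adjusted p of 0.0495. That call was lost in 10 of 16 alternatives, among them RLE scaling (0.0530) and the omission of control replicate 1 (0.219), 2 (0.174) or 3 (0.0508) or labelled replicate 2 (0.149).

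Upstream of the family, transcription factors of the interferon pathway fell. Of 13 genes listed, 12 were tested, 3 fell and 0 rose, against 4.81% and 3.48% of all genes tested, and 6 fell without labelled replicate 3. Of the 6 receptor genes and the 3 Janus kinase genes, 0 passed the adjusted p of edgeR, while 2 receptors and 1 kinase were lower and 1 kinase higher at an unadjusted p under 0.05. DESeq2 passed 1 receptor and 1 kinase as lower, and limma-voom 0. The median log2 fold change of the 12 was -0.255. IRF7, the factor that amplifies type I interferon, had 140.4 ± 18.6 CPM (SD, n = 3) in controls and 36.9 ± 13.3 CPM in the labelled libraries (log2 fold change -1.93, edgeR adjusted p = 0.00132). STAT2, a factor that acts at the response element, fell by 1.02 on the log2 scale (edgeR adjusted p = 0.00552). IRF1, an early interferon-gamma response factor, fell by 0.61 (edgeR adjusted p = 0.0240), and this did not pass without control replicate 1 (0.1), 2 (0.116) or 3 (0.0541) or labelled replicate 2 (0.116). IRF9, the DNA-binding partner of STAT2, had at most 5 reads in a library and could not be tested.

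Genes of other antiviral proteins that act at membranes were lower or did not pass the adjusted p. All 10 of the list were tested, 6 fell and 0 rose, the same counts as in DESeq2 and limma-voom, against 4.81% and 3.48% of all genes tested, with a median log2 fold change of -1.003. RSAD2 (viperin), an enzyme at the endoplasmic reticulum, had 25.5 ± 4.37 CPM (SD, n = 3) in controls and 1.85 ± 0.449 CPM in the labelled libraries (log2 fold change -3.78, edgeR adjusted p = 1.76e-05). BST2 (tetherin), which holds budding viruses at the cell surface, had 25.7 ± 6.39 CPM against 2.49 ± 1.01 CPM (-3.36, edgeR adjusted p = 0.000140). PLSCR1, a phospholipid scramblase, fell by 1.38 on the log2 scale (edgeR adjusted p = 4.44e-05). CH25H, which makes a sterol that blocks fusion, was near the limit of detection with 1.21 ± 0.458 CPM in the control and 0.0549 ± 0.0697 CPM in the labelled libraries (edgeR adjusted p = 0.00341).

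**Figure D4:**
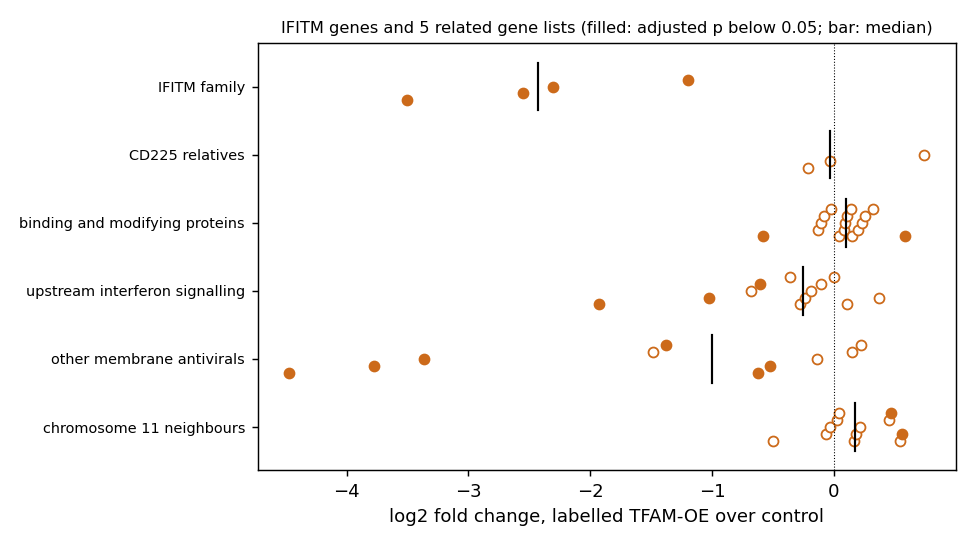
Log2 fold change of each tested gene of the IFITM family and of 5 related lists, filled where the adjusted p is below 0.05, with a bar at the median of each list. All 4 IFITM genes are filled and lie at or below -1.20, while the medians of the lists run from -1.003 for the other membrane antivirals and -0.255 for the upstream genes to between -0.03 and 0.17 for the remaining lists.

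The genes with the library profile nearest to each member were named by the Euclidean distance of log2 CPM, centred on each gene's mean, over the 6 libraries. These are descriptions, since all of them were picked for their likeness, and the profiles share the same libraries. For IFITM1 they were XAF1 (distance 0.525), BST2 (0.642) and IFNL1 (0.661). The nearest to IFITM3 were IFI16 (0.293), GBP1 (0.374) and XXbac-BPG248L24.12 (0.375). NR4A3 (0.185), CTD-2636A23.2 (0.219) and NT5C3A (0.240) were nearest to IFITM2, and LINC00520 (0.469), ATF3 (0.522) and LGALS9 (0.547) to IFITM10. Some of these are low genes, whose log2 fold changes shrank in limma-trend on log2(FPKM + 1). NR4A3 went from -1.28 in edgeR to -0.19 there, CTD-2636A23.2 from -1.30 to -0.19 and LINC00520 from -2.91 to -0.30. CTD-2636A23.2 also did not pass the adjusted p in 6 of 15 alternatives. Among the members themselves, IFITM3 and IFITM10 were the nearest pair (0.887) and IFITM1 and IFITM2 the farthest (2.85). Every member had nearer genes outside the family. That was nearly fixed in advance, since those genes were the nearest of all genes tested and the other members are few.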

How the data were processed

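The authors trimmed reads with the FASTX-Toolkit (0.0.13), dropped those shorter than 16 nt, aligned the rest to GRCh38 with TopHat2 and deposited, for each gene and library, raw counts of uniquely mapped reads and FPKM. The library kit keeps strand. Which program and annotation did the counting, and whether strand was used, is not given in the sources used here. Unused value columns numbered 0. Libraries were grouped by their labels. The members and gene lists were chosen with earlier results of these data known. 1 gene of the upstream list is not reported here. The study describes the 3 libraries of a group as biological replicates, and p-values weigh the group difference against the spread between them. In edgeR the spread of each gene is moderated by that of all genes tested. Reads carry no molecular identifiers.

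Genes kept by filterByExpr were tested on the deposited counts with edgeR (4.0.16, R 4.3.3), by its two-sided quasi-likelihood test on TMM-scaled libraries, and p-values were adjusted over 16555 genes by the Benjamini-Hochberg method. Log2 fold changes are labelled TFAM-OE over control. Calls needed an adjusted p under 0.05 together with a change of 2-fold or more, and list genes pass at the adjusted p alone. Deposited FPKM values served for levels, shares and ratios. In each list the 4 genes of smallest p past the threshold were named, or the 2 of smallest p where none passed, with up to 2 that rose, and for each member the 3 nearest genes. Sequences and identities came from GRCh38 and GENCODE (44) with Biopython (1.88), promoters from RefSeq. Permutation tests used scipy (1.17.1). The alternatives were DESeq2 (1.42.0), limma-voom and limma-trend (limma 3.58.1), other scalings and filters, each library left out and the replicate number as a block.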

Additional observations from a re-analysis of the deposited data

How the results depend on the processing

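IFITM1, IFITM2, IFITM3 and IFITM10 were called lower in all 17 alternatives listed for each, and the sum of the first 3 in all 14. Among the 17, the adjusted p alone reuses the main fit and drops the fold criterion, so its outcome was fixed in advance. Outside the omission of libraries, the log2 fold changes lay between -3.54 and -3.08 for IFITM1, -1.22 and -1.19 for IFITM2, -2.34 and -2.29 for IFITM3, and -2.59 and -1.46 for IFITM10, whose value nearest to 0 came from limma-trend on log2(FPKM + 1), a scale that shrinks the changes of low genes. With 1 library left out they lay between -3.67 and -3.37, -1.26 and -1.09, -2.45 and -2.19, and -2.86 and -2.19, and the sum between -2.08 and -1.88. The median log2 fold change of all genes was -0.008 in the main fit. It was -0.002 with RLE scaling, -0.004 with upper-quartile scaling and -0.030 with library size alone.

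The number of genes called lower, 342, was 528 with no filter on low counts, 108 with limma-trend on log2(FPKM + 1), 217 with the replicate block, 796 by the adjusted p alone and between 182 and 425 with 1 library left out. The number called higher, 74, was 129 with no filter, 43 with at least 50 reads in 3 libraries, 44 and 11 with limma-trend after adding 0.1 and 1, 38 with the block, 576 by the adjusted p alone and between 21 and 113 with 1 library left out. Of the CD225 relatives, 1 was higher under DESeq2 and with no filter, and 0 to 1 with 1 library left out. Of the binding and modifying proteins, 0 were lower under RLE scaling, library size alone, at least 50 reads in 3 libraries, both limma-trend settings and the block, 0 were higher under the block, and 0 to 1 were lower and 0 to 3 higher with 1 library left out. Of the upstream genes, 5 were lower under DESeq2, 1 was higher with no filter, 1 was lower with the block, and 2 to 6 were lower and 0 to 1 higher with 1 library left out. Of the chromosome 11 neighbours, 0 were higher with the block and 0 to 3 with 1 library left out. By CPM in place of FPKM, the IFITM3 share was 60.9% in the control and 48.5% in the labelled libraries. The IFITM2 share was 27.5% and 47.4%, and the IFITM1 share 11.6% and 4.03%. Nearest genes by Pearson correlation shared 0 of 3 with those by distance for each member. The cause of these moves was not tested.

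Same-numbered libraries did not deviate together (correlations -0.23, 0.01 and -0.27), so the replicate number was not taken as a pairing. Of the differently numbered pairs, control replicate 3 with labelled replicate 1 had 0.25 and control replicate 1 with labelled replicate 3 had 0.24. The remaining pairs lay between -0.04 and 0.03. With the block the log2 fold changes were -3.50, -1.20, -2.31 and -2.48 for IFITM1, IFITM2, IFITM3 and IFITM10. Under it STAT2 (adjusted p = 0.0503), IRF1 (0.0852), AP2A1 (0.0798), NEDD4 (0.163), PKP3 (0.148) and SIGIRR (0.153) did not pass.

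Depth limits IFITM10 and IFITM1 most, with as few as 60 and 86 reads in a labelled library, and paralogous sequence limits how reads divide among IFITM1, IFITM2 and IFITM3.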
